A study of Homo sapiens with 6 samples.

Results

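The genes described here are 8 feedback inhibitors and transcriptional outputs of the RAS-ERK pathway: the Sprouty genes SPRY1, SPRY2 and SPRY4, the related SPRED1 and SPRED2, the PEA3-type ETS factors ETV4 and ETV5, and PHLDA1. They were chosen by name as known ERK outputs, with earlier results of these data known. All 8 were found among the 27451 gene rows, each once, and all 8 averaged at least 1 TPM and so were among the 12294 genes tested. Poly-A RNA was sequenced from the triple-negative human breast cancer line MDA-MB-231, in 3 libraries from cells given the vehicle DMSO and 3 from cells given H182 at 2 µM. Both treatments lasted 2 h, and the series title describes the compounds of the study as STAT3 inhibitors. The study compared H182 with DMSO to find transcripts changed by the compound. ERK activity itself was not measured in these data.

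In the RAS-ERK pathway, growth factor receptors load RAS with GTP, and RAS drives the kinases RAF, MEK and ERK. ERK then induces genes whose products restrain the same pathway. Sprouty proteins act near the receptor, in part through the adaptor GRB2 and the ubiquitin ligase CBL, and SPRED proteins bring the RAS inactivator neurofibromin to the membrane. ETV4 and ETV5 carry the ERK signal into further transcription. PHLDA1, a pleckstrin homology-like protein, is induced by ERK and also by heat and endoplasmic reticulum stress.

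Among the 8 genes, the main change after 2 h of H182 was a fall of SPRY1 by more than 2-fold. Its relatives SPRY2 and SPRY4 were not lower. SPRY2 was 1.13-fold higher, a small change that passed in 12 of the 17 processing settings run. The sequences before the starts of SPRY1 and SPRY2 are shown, and no link between sequence and change was tested. They are the 250 bases upstream of the first start listed for each gene in RefSeq (GRCh38.p14), printed 5′ to 3′ in the direction of transcription. SPRY1 lies on the plus strand at chr4:123396545-123396794, and SPRY2 on the minus strand at chr13:80341127-80341376. Capitals mark the ETS core GGAA, or TTCC where it lies on the other strand.
SPRY1: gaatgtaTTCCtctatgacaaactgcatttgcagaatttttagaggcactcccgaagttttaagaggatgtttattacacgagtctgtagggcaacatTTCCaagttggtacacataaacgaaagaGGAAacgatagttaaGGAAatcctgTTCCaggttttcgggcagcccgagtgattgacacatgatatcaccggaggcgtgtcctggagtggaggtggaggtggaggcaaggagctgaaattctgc
SPRY2: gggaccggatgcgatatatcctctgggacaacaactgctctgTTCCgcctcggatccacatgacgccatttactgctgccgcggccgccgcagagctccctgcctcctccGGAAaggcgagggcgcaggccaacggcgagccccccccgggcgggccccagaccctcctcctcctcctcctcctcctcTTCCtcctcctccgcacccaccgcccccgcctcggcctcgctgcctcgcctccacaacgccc

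The SPRY1 window held 5 ETS cores and the SPRY2 window 3. GGAA on either strand was present in 92.7% of all 35116 RefSeq windows of this length, with a median of 3 per window. The GC content was 45.6% in the SPRY1 window and 70.4% in the SPRY2 window, against a median of 58.0% over all windows. The promoter table held 10 windows for 6 of the genes, and ETV4 and ETV5 were not matched. At the other listed starts this order did not hold: the second SPRY1 window had a GC content of 68.0%, and the other SPRY2 windows had 62.4% and 41.2%. The longer ETS sequence CCGGAA was in 3 of the 10 windows, 1 each of SPRY1, SPRY2 and PHLDA1, and in 14.5% of all windows. Searched on both strands, the AP-1 site TGANTCA, the cyclic AMP element TGACGTCA, the site TGAATGNA of the repressor CIC and the CArG box were in none of the 10. They occurred in 6.57%, 1.65%, 3.25% and 1.16% of all windows, respectively. TGACG, the opening part of the cyclic AMP element, was in 2 of the 10, the SPRY4 window and the SPRY2 window printed above, and in 21.2% of all windows. Of the inverted heat shock repeats, TTCNNGAA was in 1 window, the second of SPRY1, and GAANNTTC in none, against 6.62% and 5.78% of all windows. A match of this kind is a description of the letters and no evidence of binding.

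Values are TPM, a length-normalised abundance for which each library sums to 1000000. When a few transcripts increase strongly, all others together must hold a smaller share. The heat shock genes HSPA1A, HSPA1B and DNAJB1 together held 0.0505 ± 0.00208% of TPM in DMSO and 2.66 ± 0.0841% in H182 (SD, n = 3 each). Of the genes at an adjusted p under 0.05 by limma, 78.0% were lower in TPM and 67.6% with totals taken without these 3 genes. Why most were lower was not tested. Over the tested genes the median log2 change was -0.09 in TPM (with a pseudocount of 1), and 0.00 after each library was divided by its median ratio to the mean library (median-ratio scaling). Because most changes described here were of this order, both scalings are given. Rose and fell are used for genes at an adjusted p under 0.05 by limma in TPM. Of the line's markers, the mesenchymal gene VIM ranged from 4002 to 4051 TPM in DMSO and from 3430 to 3701 TPM in H182, the hormone receptor genes ESR1 and PGR and the cadherin gene CDH1 were at most 0.28 TPM in any library, and EPCAM was at most 16.2 TPM. GATA3, a further marker expected to be low, was at 9.61 to 11.3 TPM in DMSO and 6.47 to 7.27 TPM in H182. The keratin genes KRT8, KRT18 and KRT19 were at 338 to 488 TPM. Of the markers of immune, endothelial and fibroblast cells, CD68 reached 157 TPM and COL1A1 8.37 TPM, while PTPRC, CD3E, PECAM1, CDH5, COL3A1 and DCN were at most 1.07 TPM. In bulk RNA, a change in all cells and a larger one in some of them cannot be told apart.

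In TPM, 4 of the 8 genes fell, SPRY1, PHLDA1, SPRED1 and ETV4, and SPRY2 alone rose. Over all tested genes 18.7% fell and 5.30% rose, 24.0% in all. With median-ratio scaling 2 fell (SPRY1 and PHLDA1) and 2 were higher (SPRY2 and SPRY4), where 6.78% of tested genes were lower and 7.88% higher (14.7% in all). The median change of the 8 genes was -0.13 in TPM and -0.03 after rescaling, near the medians of all tested genes. Fully separated TPM ranges were seen in 6 of the 8, 4 with H182 below and 2 with it above, where 32.7% and 8.67% of the tested genes were so separated. A single one of the 8, SPRY1, fell at least 2-fold, as did 0.211% of tested genes.

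**Figure D1:**
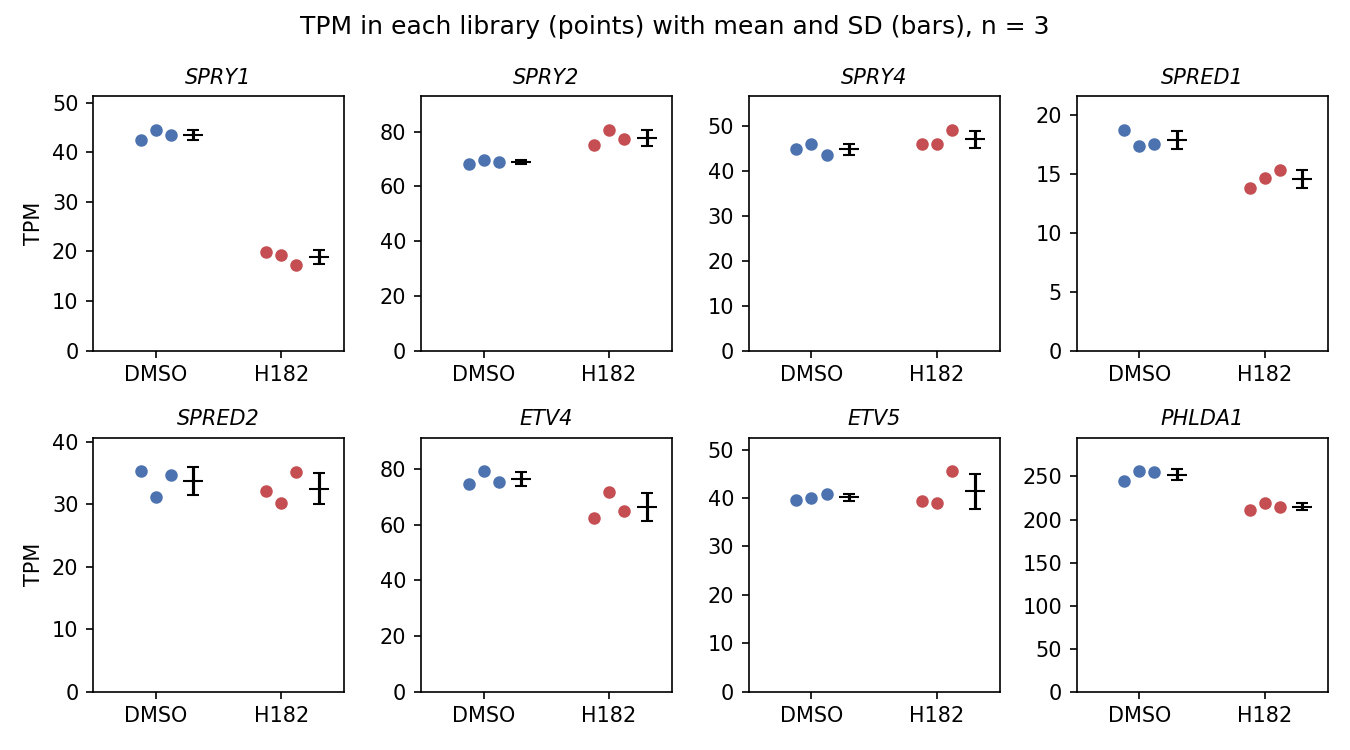
TPM (y axis, from 0, one scale per gene) of the 8 genes in each of the 3 DMSO and 3 H182 libraries, with the mean and SD beside the points. SPRY1 lies at 42.4 to 44.5 TPM in DMSO and 17.3 to 20.0 TPM in H182, the other genes change by a smaller fold, and SPRED2 and ETV5 overlap between groups.

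Sprouty genes encode inhibitors that act close to the receptor. SPRY1 (ENSG00000164056.10, chromosome 4, 123396795 to 123403760, plus strand, GRCh38, GENCODE 29) was at 42.4, 44.5 and 43.5 TPM in the DMSO libraries and at 20.0, 19.2 and 17.3 TPM in the H182 libraries. Every H182 library was below every DMSO library, with a wide gap between the groups. The mean went from 43.5 ± 1.08 to 18.8 ± 1.40 TPM (SD, n = 3 each), a 2.31-fold lower level. The log2 change was -1.17 (SE 0.070, 95% interval -1.32 to -1.01, limma adjusted p = 2.57e-06), and -1.07 with median-ratio scaling (limma adjusted p = 1.41e-05). It was the 17th lowest change of the 12294 tested genes.

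SPRY2 (ENSG00000136158.10, chromosome 13, 80335976 to 80340951, minus strand) was at 68.2, 69.7 and 69.0 TPM in DMSO and at 75.1, 80.8 and 77.2 TPM in H182. The groups did not overlap, and the distance between them was small. The level was 1.13-fold higher, from 69.0 ± 0.771 to 77.7 ± 2.84 TPM, with a log2 change of 0.17 (SE 0.047, limma adjusted p = 0.0291). With median-ratio scaling the change was 0.27 (limma adjusted p = 0.00380). The call in TPM was lost without any 1 of the 3 DMSO libraries or without H182 replicate 2, at limma adjusted p of 0.0666 to 0.105.

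SPRY4 (ENSG00000187678.8, chromosome 5, 142310427 to 142326455, minus strand) was at 44.9, 45.9 and 43.5 TPM in DMSO and at 46.0, 45.9 and 49.1 TPM in H182. The lowest H182 value (45.91 TPM) was just above the highest DMSO value (45.88 TPM). In TPM the gene did not pass, with a log2 change of 0.07 (95% interval -0.05 to 0.19, limma adjusted p = 0.393), whereas median-ratio scaling gave 0.17 (limma adjusted p = 0.0459). The antisense genes SPRY4-AS1 and ETV5-AS1 overlap SPRY4 and ETV5 on the other strand in GENCODE 29. Without the strand setting of the authors' counting, which is not given, reads of these overlaps may not be told apart. SPRY4-IT1, a noncoding transcript from within SPRY4, averaged 1.96 ± 0.321 TPM (DMSO) and 2.01 ± 0.256 TPM (H182) and did not pass (log2 change 0.03, limma adjusted p = 0.911). SPRY3 was nearly silent, at 0.08 TPM or less in every library.

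Because TPM is scaled by transcript length, levels can be compared between these genes. SPRY1, SPRY2 and SPRY4 summed to 157 ± 2.56 TPM in DMSO and 144 ± 2.41 TPM in H182. SPRY1 made up 27.6 ± 0.336% of this sum in DMSO and 13.1 ± 1.06% in H182, and SPRY2 went from 43.9 ± 0.354% to 54.1 ± 1.09%. SPRY4 contributed 28.5 ± 0.517% in DMSO and 32.8 ± 1.39% in H182. The Sprouty mRNA pool of the treated cells thus held a smaller share of SPRY1 and larger shares of SPRY2 and SPRY4, quantities that scaling of the library does not touch. Because the shares add up to the whole, a fall of SPRY1 by itself raises those of SPRY2 and SPRY4. The level of SPRY4 did not pass in TPM (limma adjusted p = 0.393) and passed with median-ratio scaling (0.0459).

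The SPRED genes encode Sprouty-related inhibitors that carry an EVH1 domain. SPRED1 (ENSG00000166068.12, chromosome 15, 38252326 to 38357249, plus strand) was at 18.7, 17.4 and 17.5 TPM in DMSO and at 13.8, 14.7 and 15.3 TPM in H182. All H182 libraries were below all DMSO libraries. It fell by 0.28 on the log2 scale (SE 0.077, limma adjusted p = 0.0282), to 0.815 of its DMSO level. The call was lost with median-ratio scaling (log2 change -0.18, limma adjusted p = 0.132) and with the replicate block (0.0584). Leaving out any DMSO library, or H182 replicate 1 or 2, also ended it, at limma adjusted p of 0.0612 to 0.0887.

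SPRED2 (ENSG00000198369.9, chromosome 2, 65310851 to 65432637, minus strand) was at 35.4, 31.2 and 34.8 TPM in DMSO and at 32.1, 30.2 and 35.2 TPM in H182. The ranges overlapped for the most part, with H182 replicate 2 below every DMSO library, and the log2 change was -0.05 (95% interval -0.22 to 0.12, limma adjusted p = 0.652). SPRED3, a further relative that was not among the 8, was low and rose from 2.90 ± 0.228 to 5.33 ± 1.48 TPM (log2 change 0.67, limma adjusted p = 0.0193). Its H182 values were 3.96, 5.14 and 6.90 TPM, a wide spread. The call was lost without DMSO replicate 2 (0.0617) or H182 replicate 2 (0.0550), and without a filter on low values (limma adjusted p = 0.0646).

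**Figure D2:**
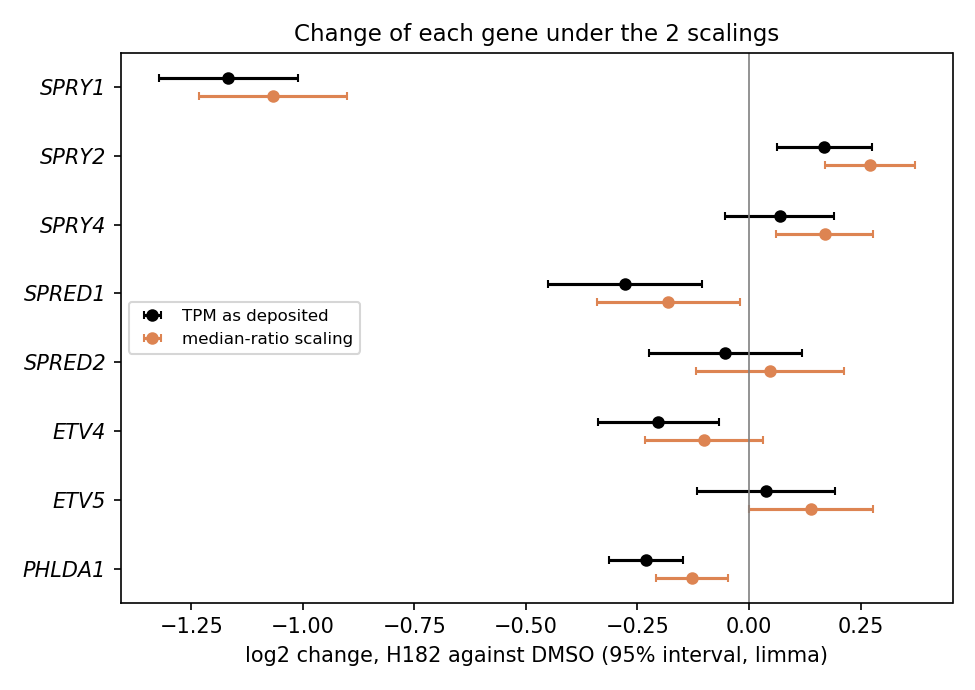
Log2 change (x axis, H182 against DMSO) of each of the 8 genes with its 95% interval from limma, in TPM (black) and after median-ratio scaling (orange). SPRY1 lies near -1.1 on both scalings, and each of the others lies within 0.28 of 0 and moves to the right by about 0.1 with the second scaling.

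ETV4 and ETV5 are the transcriptional arm of the group. ETV4 (ENSG00000175832.12, chromosome 17, 43527844 to 43579620, minus strand) was at 74.7, 79.2 and 75.1 TPM in DMSO and at 62.2, 71.7 and 64.9 TPM in H182. The groups were separate, with H182 replicate 2 nearest to the DMSO libraries. ETV4 fell by 0.20 on the log2 scale (SE 0.060, limma adjusted p = 0.0372). That call was lost with median-ratio scaling (-0.10, limma adjusted p = 0.298) and without any 1 library other than H182 replicate 2 (0.0628 to 0.119).

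ETV5 (ENSG00000244405.7, chromosome 3, 186046308 to 186110318, minus strand) was at 39.5, 40.0 and 40.9 TPM in DMSO and at 39.4, 39.0 and 45.6 TPM in H182. H182 replicates 1 and 2 were just below the DMSO range and replicate 3 above it. The log2 change was 0.04 (95% interval -0.12 to 0.19, limma adjusted p = 0.728). The third PEA3-type gene, ETV1, averaged 35.0 ± 0.695 TPM (DMSO) and 33.2 ± 1.60 TPM (H182) and did not pass (-0.07, limma adjusted p = 0.398).

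PHLDA1 (ENSG00000139289.13, chromosome 12, 76025447 to 76033932, minus strand) had the highest level of the 8. It was at 245, 256 and 255 TPM in DMSO and at 211, 219 and 215 TPM in H182. The groups did not overlap and the spread within each was small. PHLDA1 fell by 0.23 on the log2 scale (SE 0.037, limma adjusted p = 0.00221), and the change was -0.13 with median-ratio scaling (limma adjusted p = 0.0447). Its relative PHLDA2 rose 1.12-fold from 248 ± 0.402 TPM (log2 change 0.16, limma adjusted p = 0.0133). The PHLDA2 call was lost without H182 replicate 2 (0.0558) and without the mean-variance trend (limma adjusted p = 0.0696). PHLDA3 averaged 8.40 ± 0.935 TPM (DMSO) and 8.13 ± 0.966 TPM (H182) and did not pass.

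By mean TPM in DMSO the order was PHLDA1, ETV4, SPRY2, SPRY4, SPRY1, ETV5, SPRED2 and SPRED1. The ranges of SPRY4 and SPRY1 overlapped there, and those of the other neighbours did not. In H182 the order was PHLDA1, SPRY2, ETV4, SPRY4, ETV5, SPRED2, SPRY1 and SPRED1, and no neighbouring ranges overlapped. SPRY1 moved from the fifth place to the seventh, and SPRY2 passed ETV4. The coefficient of variation within DMSO ran from 1.12% for SPRY2 to 6.71% for SPRED2, and within H182 from 1.87% for PHLDA1 to 8.91% for ETV5.

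Ratios within a library do not depend on its scaling, and 4 were compared. SPRY1 was at 0.630 ± 0.00870 of SPRY2 in DMSO and at 0.243 ± 0.0213 in H182, a difference of -1.38 on the log2 scale. SPRED1 relative to SPRED2 went from 0.531 ± 0.0268 to 0.449 ± 0.0306. In both pairs no H182 library overlapped a DMSO library, which gives the smallest p that 3 against 3 libraries allow (two-sided exact permutation p = 0.1, adjusted 0.2 over the 4 pairs). ETV4 relative to ETV5 was 1.90 ± 0.0722 in DMSO and 1.61 ± 0.208 in H182, and SPRY2 relative to SPRY4 was 1.54 ± 0.0387 and 1.65 ± 0.0959. Those ratios overlapped between groups (exact permutation p = 0.2 each).

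**Figure D3:**
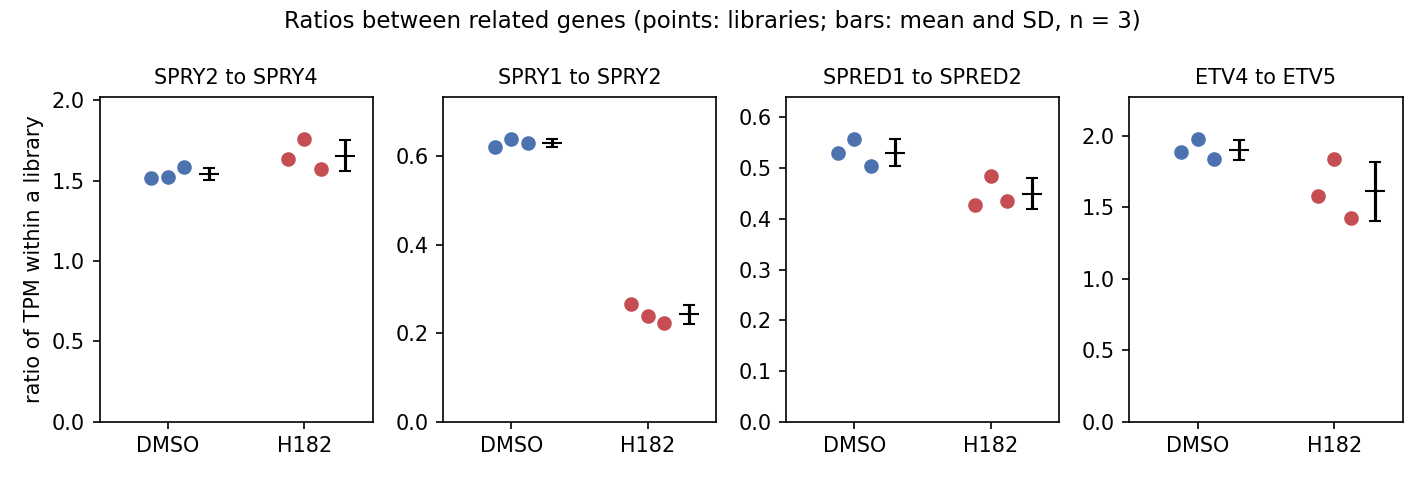
Ratio of TPM between related genes within each library (y axes start at 0; points are libraries, bars the mean and SD, n = 3). The ratio of SPRY1 to SPRY2 is 0.622 to 0.639 in DMSO and 0.224 to 0.266 in H182, while the ratios SPRY2 to SPRY4 and ETV4 to ETV5 overlap between groups.

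A list of 10 genes used elsewhere as a score of MAPK pathway activity holds 5 of the 8 genes, together with DUSP4, DUSP6, CCND1, EPHA2 and EPHA4. Of these 10, 6 fell and SPRY2 rose in TPM, and 4 were lower and 2 higher with median-ratio scaling. Over all tested genes 18.7% fell and 5.30% rose in TPM, and 6.78% were lower and 7.88% higher with the second scaling. The median log2 change of the 10 was -0.18 in TPM and -0.08 rescaled, beside -0.09 and 0.00 over all tested genes. DUSP6, the cytosolic phosphatase of ERK, fell from 287 ± 7.62 to 168 ± 12.4 TPM (log2 change -0.77, limma adjusted p = 9.60e-06). CCND1, the gene of cyclin D1, fell by 0.63 on the log2 scale, and DUSP4, a nuclear phosphatase of ERK, by 0.31. Those falls passed with both scalings. EPHA2, an ephrin receptor, fell by 0.16 in TPM and did not pass with median-ratio scaling, nor without DMSO replicate 2 or 3 or H182 replicate 1 or 2 (limma adjusted p of 0.0586 to 0.0641). EPHA4 averaged 8.61 ± 0.236 TPM (DMSO) and 7.82 ± 1.08 TPM (H182) and did not pass. The signature genes therefore changed unequally: DUSP6 and CCND1 were at 0.587 and 0.644 of their DMSO levels, while SPRY4 and ETV5 were at 1.05 and 1.03 times theirs.

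Of 18 other genes known to respond to ERK, 16 were measured. In both scalings 11 of them were higher and 4 lower, where 5.30% of tested genes were higher and 18.7% lower in TPM (7.88% and 6.78% rescaled). Their median log2 change was 0.36 in TPM and 0.46 rescaled. The list was chosen with earlier results of these data known, so its counts are a description and no test. EGR1 rose from 9.84 ± 0.219 to 121 ± 7.07 TPM, FOS from 4.36 ± 1.11 to 150 ± 13.5 TPM, and DUSP5, a nuclear phosphatase that acts on ERK, from 35.3 ± 0.817 to 101 ± 1.58 TPM. MYC rose 2.27-fold. These genes also respond to stress and to other pathways. Lower were FOSL1, an AP-1 subunit (637 ± 7.53 to 347 ± 12.3 TPM), KLF10, DUSP7 and the cytokine LIF, by 0.87, 0.82, 0.45 and 0.49 on the log2 scale. Outputs attributed to ERK thus changed in both directions in the same libraries.

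**Figure D4:**
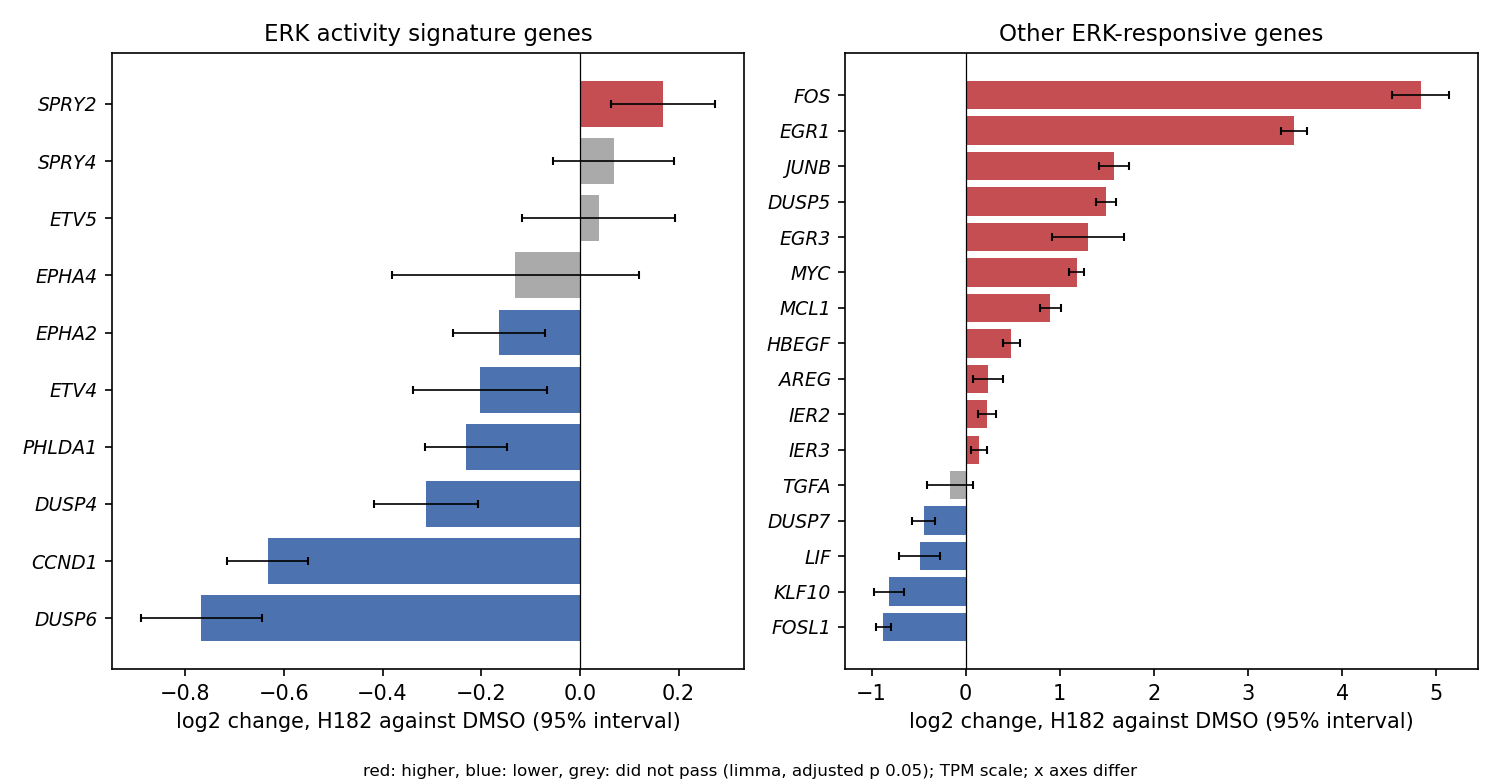
Log2 change (x axes, which differ in range; TPM, H182 against DMSO) with 95% intervals from limma for the 10 signature genes (left) and the 16 other measured ERK-responsive genes (right). On the left DUSP6 lies lowest at -0.77 and SPRY2 highest at 0.17, and on the right the changes run from -0.87 for FOSL1 to 4.83 for FOS.

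Of 24 measured genes of the pathway, from receptors and adaptors through RAS and its regulators to the kinases RAF, MEK, ERK and RSK, none rose and 5 fell in TPM (PTPN11, NRAS, EGFR, SHC1 and RPS6KA3), each by 0.20 to 0.25 on the log2 scale. The share was near that of all tested genes, of which 18.7% fell, and the median log2 change of the 24 was -0.11, beside -0.09 over all. With median-ratio scaling none of the 24 passed, where 6.78% of tested genes were lower and 7.88% higher. PTPN11, the phosphatase SHP2 that promotes RAS activation, fell from 160 ± 4.68 to 134 ± 8.48 TPM (limma adjusted p = 0.00751, and 0.0555 with median-ratio scaling). The calls of the other 4 were each lost without DMSO replicate 1 or 3 or H182 replicate 1, those of NRAS, EGFR and RPS6KA3 also without DMSO replicate 2, those of EGFR, SHC1 and RPS6KA3 without H182 replicate 2, and that of RPS6KA3 without H182 replicate 3 (limma adjusted p of 0.0502 to 0.146).

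Of 15 measured partners of Sprouty and SPRED proteins, a list that shares members with the pathway list, 2 rose and 3 fell in TPM (CAV1, PTPN11 and CBL), and 2 were higher and 1, CAV1, lower with median-ratio scaling. The count of falls was close to the 18.7% over all tested genes in TPM, where 5.30% rose, and after rescaling 6.78% were lower and 7.88% higher. The median log2 change of the 15 was -0.11 in TPM. MKNK2, a kinase of the MNK family that ERK activates, rose from 38.6 ± 2.06 to 86.1 ± 6.47 TPM (log2 change 1.14, limma adjusted p = 2.27e-06). SIAH2, a ubiquitin ligase known to degrade Sprouty proteins, rose 1.82-fold from 13.4 ± 0.592 TPM. The membrane scaffold gene CAV1 fell to 0.784 of 417 ± 6.69 TPM. CBL, the ubiquitin ligase that Sprouty proteins bind, fell to 0.761 of its DMSO level, at 9.90 ± 1.05 TPM in H182 (log2 change -0.37, limma adjusted p = 0.0221). The CBL call was lost with median-ratio scaling (-0.27, limma adjusted p = 0.0761), without a filter on low values (0.0534), and without DMSO replicate 1 or 2 or H182 replicate 1 or 2 (0.0641 to 0.0755). Of 7 measured regulators of ETV4 and ETV5, DDB1 and RFWD2, which encodes the ubiquitin ligase COP1, fell by 0.19 and 0.20, and none passed with median-ratio scaling. Over all tested genes 18.7% fell in TPM, and 6.78% were lower and 7.88% higher after rescaling. The median log2 change of the 7 was -0.17 in TPM, beside -0.09 over all. The DDB1 call was also lost with quantile normalization (limma adjusted p = 0.0909) and without the mean-variance trend (0.0571). The RFWD2 call was lost without any 1 DMSO library or without H182 replicate 1 or 2 (limma adjusted p of 0.0678 to 0.130).

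Among 14 measured ETS factors outside the PEA3 type, 1 rose and 7 fell in TPM, and 1 was higher and 4 lower with median-ratio scaling. Over all tested genes 5.30% rose and 18.7% fell in TPM, and 7.88% were higher and 6.78% lower after rescaling. The median log2 change of the 14 was -0.23 in TPM and -0.13 rescaled, beside -0.09 and 0.00 over all. ETS2 rose 1.53-fold from 32.0 ± 1.60 TPM. EHF fell to 0.650 of 41.9 ± 2.03 TPM, ELF4 by 0.38, ELK3 by 0.37 and ETS1 by 0.36 on the log2 scale, and these calls passed with both scalings.

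The tested genes most like SPRY1 over the 6 libraries, by the Euclidean distance of log2 changes from the DMSO mean among 8585 genes at 10 TPM or more, were PPP1R10, ADAMTS15 and FOXA2. They went from 62.4, 19.2 and 38.4 TPM in DMSO to 28.6, 7.91 and 17.2 TPM in H182. For SPRY2 the nearest were PHLDA2, ZNF804A and B4GALT1, with log2 changes of 0.16, 0.18 and 0.16, of which ZNF804A and B4GALT1 did not pass. With 2 groups of 3 libraries, this likeness mostly reflects the size of the change.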

How the data were processed

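Per the labels' protocols, RNA was isolated by column and poly-A libraries were made with a stranded kit. The authors deposited TPM per gene and library, rounded to 2 decimals. STAR 2.5.0 and RSEM 1.2.25 were used with the build GRCh38, per the submitters' processing notes. The annotation and strand setting are not given in the sources used here. TPM keeps no depth, so no counting error is given. Of 27567 rows, 92 spike-in rows at 0 and 24 duplicate rows of X and Y genes were left out.

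H182 was compared with DMSO in limma 3.58.1 (R 4.3.3) on log2(TPM + 1) over the 12294 genes that averaged 1 TPM or more, with empirical Bayes moderation, a mean-variance trend, two-sided tests and Benjamini-Hochberg adjustment over all of them. Fold changes on this scale understate those of low genes. In simulated data (12294 genes), the fit recovered 19.0% of log2 changes of 0.25, 59.2% of those of 0.5 and 92.4% of those of 1. Recovery with as large a share of changed genes as passed here (24.0%) was not tested. The labels do not say whether replicates were separate cultures. If they were not, the p-values reflect technical spread alone. The 8 genes and all lists were chosen with earlier results of these data known, and no list was tested as a set. Genes named were the 8, all measured genes of the signature and the related families, and up to 4 members of each other list with the lowest p. CBL, ELK3 and further genes that passed were named, after their values were seen, where 5 or fewer made up a count. Coordinates are from GENCODE 29 (GRCh38), matched by gene identifier without its version, and promoter sequences from RefSeq (GRCh38.p14). The GENCODE 29 versions of SPRY2 and SPRY4 are ENSG00000136158.11 and ENSG00000187678.9, later than the deposited ones printed above. The printed SPRY2 window (from 80341127) lies upstream of the GENCODE 29 gene (to 80340951) and does not adjoin it. Figures were drawn with matplotlib 3.10.9.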

Additional observations from a re-analysis of the deposited data

How the results depend on the processing

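SPRY1 and PHLDA1 passed in all 17 settings run, with SPRY1 between -1.21 and -1.11 when a library was left out. SPRY2 passed in 12, SPRED1 in 8 and ETV4 in 6 of the 17. With a library left out, the log2 change of SPRY2 ran from 0.14 to 0.19. That of SPRED1 ran from -0.31 to -0.24, and that of ETV4 from -0.26 to -0.16. With median-ratio scaling, 969 tested genes were higher and 833 lower, 2 of the 8 genes higher and 2 lower, 2 signature genes higher, and 0 pathway genes lower. Quantile normalization gave 1261 tested genes, 2 of the 8 and 1 pathway gene lower, and totals taken without HSPA1A, HSPA1B and DNAJB1 gave 1497, 2 and 1. In TPM 78.0% of calls were lower, with median-ratio scaling 46.2%, with quantile normalization 60.2% and with the reduced totals 67.6%. Without the mean-variance trend 0 of the 8 and 0 signature genes were higher and 2 pathway genes were lower, and without a filter on low values 2 pathway genes were lower. The cause of these differences was not tested. Leaving out each library in turn gave 529 to 586 tested genes higher and 1407 to 2205 lower, the lower counts falling below the main count by over 1.5 times without DMSO replicate 2 (1407) and H182 replicate 2 (1486). Over the same settings 0 to 1 of the 8 were higher and 2 to 3 lower, 0 to 1 signature genes higher, and 1 to 6 pathway genes lower.

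Some genes that did not pass changed sign: SPRED2 to 0.047 (median-ratio) and 0.021 (quantile), ETV1 to 0.026 and 0.0045, and PHLDA3 to 0.048 (median-ratio). With a library left out, ETV5 ran from -0.033 to 0.077, PHLDA3 from -0.12 to 0.028 and SPRY4-IT1 from -0.064 to 0.094. Replicate numbers are shared between groups, but deviations of same-numbered libraries correlated at -0.04 to 0.00 across genes, so they give no sign of pairs. With the replicate block, 625 tested genes were higher and 2059 lower, and 3 of the 8 were lower, SPRED1 being lost. Depth is unknown, so the counting error of low genes such as SPRED3 and SPRY4-IT1 cannot be given.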
